A study of Mus musculus with 9 samples.

Results

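A set of 10 genes that mark dendritic cells were examined in the normal thymus of mice, in tumors of the thymus and in thymus tumors labelled as XIST-resistant. XIST is the RNA that silences the X chromosome. The genes were Itgax, Xcr1, Zbtb46, Siglech, Cd83, Ccl17, Ccl22, Fscn1, Irf8 and Flt3. They were chosen by name, and every probe set of the array that carried one of these symbols alone was kept. This gave 10 genes among 18193 with a single symbol, and 17 probe sets among 45101. Each group held 3 Affymetrix Mouse430_2 arrays, hybridised with biotin-labelled cRNA made from 5 microgram of total RNA. The strain, age, genotype and origin of the tumors, and whether a tumor group is more than 1 tumor or line, are not stated in the labels. Nothing in the labels ties the arrays of a group to separate animals, and the p-values therefore cover the spread between arrays alone, which may be technical.

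Dendritic cells take up antigen and present it to T cells on MHC class II molecules. In the thymus they lie mainly in the medulla and at its border with the cortex, where they help to delete self-reactive thymocytes and to generate regulatory T cells. Conventional dendritic cells are commonly divided into type 1 cells, which carry the chemokine receptor Xcr1, and type 2 cells, which carry Sirpa. Plasmacytoid dendritic cells, which carry Siglech, produce type I interferon. As dendritic cells mature they gain Cd83, Fscn1, Ccr7 and the chemokines Ccl17 and Ccl22, and raise costimulatory molecules. In whole tissue, fewer cells of a type and less RNA per cell cannot be told apart. Several of the genes are also used by other cells: Cd83 by thymic epithelial and B cells, Irf8 by B cells and macrophages, Flt3 by early lymphoid progenitors, and Fscn1 by many motile and tumor cells.

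The arrays differed in ways that the groups do not explain. Array 1 of each group and array 2 of the resistant tumors showed almost no signal for the poly-A spike-in controls (mean 2.01 to 2.95), while the other 5 arrays had means of 141 to 237. The median signal of an array was 23.6 to 25.8 in the first set and 13.9 to 17.8 in the second. Both sets held all 3 groups. The ratio of the 3' to the 5' probe set of Actb, a sign of RNA integrity, was 1.63 to 3.16, highest in tumor 2 and resistant tumor 3. On tumor 1 the 64 rows of control probes were ordered differently from the other arrays. They were sorted by name to read its spike-in signal and Actb ratio. Their correlation with the other arrays was -0.29 as given and 0.91 when sorted. Control rows were left out of all tests, though the spike-in sets used below were read from them. Signals are in arbitrary units, and a probe set's level is compared only with itself across arrays or with the median of the array.

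Before the values, 3 promoters are shown, those of the neighbouring chemokine genes Ccl22 and Ccl17 and that of the transcription factor gene Irf8. These genes were lower in both tumor groups, as were Cd83, which has no window, and Flt3, whose window is not shown. Shared regulation was not tested. The windows are the 250 bases before the transcription start in RefSeq, build GRCm38.p6, all on the plus strand of chromosome 8. They span chr8:94745434-94745683, chr8:94810203-94810452 and chr8:120736108-120736357. Irf8 has a second start in that table, whose window is not shown. Capitals mark the PU.1 core GAGGAA in Ccl17 and the TATA box letters TATAAA in Irf8.
Ccl22: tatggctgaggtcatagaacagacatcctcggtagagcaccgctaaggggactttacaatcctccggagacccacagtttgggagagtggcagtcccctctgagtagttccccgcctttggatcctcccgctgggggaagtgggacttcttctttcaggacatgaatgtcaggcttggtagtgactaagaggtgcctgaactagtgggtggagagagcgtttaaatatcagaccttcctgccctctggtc
Ccl17: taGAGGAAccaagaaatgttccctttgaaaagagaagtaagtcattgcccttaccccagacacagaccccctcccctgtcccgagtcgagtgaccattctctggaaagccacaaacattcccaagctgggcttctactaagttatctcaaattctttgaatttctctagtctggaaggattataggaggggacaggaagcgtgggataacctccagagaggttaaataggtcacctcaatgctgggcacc
Irf8: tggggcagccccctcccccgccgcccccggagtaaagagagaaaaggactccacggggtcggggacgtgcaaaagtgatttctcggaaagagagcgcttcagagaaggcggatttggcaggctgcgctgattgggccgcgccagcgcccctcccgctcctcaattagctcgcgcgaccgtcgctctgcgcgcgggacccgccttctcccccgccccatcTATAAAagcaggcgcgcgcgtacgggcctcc

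Promoter windows were found for 9 of the 10 genes, Cd83 being the one not matched. Both strands of their 10 windows were searched for 5 motifs. The PU.1 core GAGGAA stood in 1 of them, that of Ccl17, 248 bases before the start, against 23.3% of all 32851 windows of the same length. The TATA box letters TATAAA stood in the windows of Fscn1, Irf8 and Xcr1, against 12.4% of all windows. In Fscn1 and the Irf8 window shown they began 31 bases before the start. In Xcr1 they stood on the opposite strand, 160 bases before the start, and the second Irf8 window held none. The TATA box was added after the windows had been seen. None of the 10 windows held the interferon response element (2.98% of all windows), the ETS-IRF composite element (2.30%) or the kappaB site (1.21%). GC content was 53.6% in Ccl22, 47.6% in Ccl17 and 67.2% in this window of Irf8, against a median of 52.4% over all windows. The PU.1 core and the composite element share the letters GGAA and can overlap. A match says only that these letters are present.

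Relative to normal thymus, 6 of the 10 genes were lower in the tumors by the fit across genes and none was higher. Cd83, Ccl22, Irf8, Flt3, Itgax and Siglech passed the test (limma, adjusted p under 0.05). In the resistant tumors 4 passed, all lower: Cd83, Ccl22, Irf8 and Flt3. Between resistant tumor and tumor none of the 10 genes passed. A gene entered this fit when one of its probe sets reached the array median on at least 3 arrays. Of the 10 genes 8 did so, Xcr1 and Ccl17 did not, and Cd83, Ccl22, Siglech and Flt3 did so through the 3 normal arrays alone. Over all 11671 genes tested, 19.1% were called lower and 23.3% higher in tumor against normal thymus. For resistant tumor the shares were 20.2% lower and 23.1% higher. The 3 arrays of a tumor group lay wholly below the 3 normal arrays for 6 of the 8 genes in each comparison, where the share over all genes was 25.2% and 25.7%. Because 4 of the 8 genes entered only through normal arrays, on which they were high, a fall in them is partly built into the filter. These counts over the tested genes are a description and no support for a direction.

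**Figure D1:**
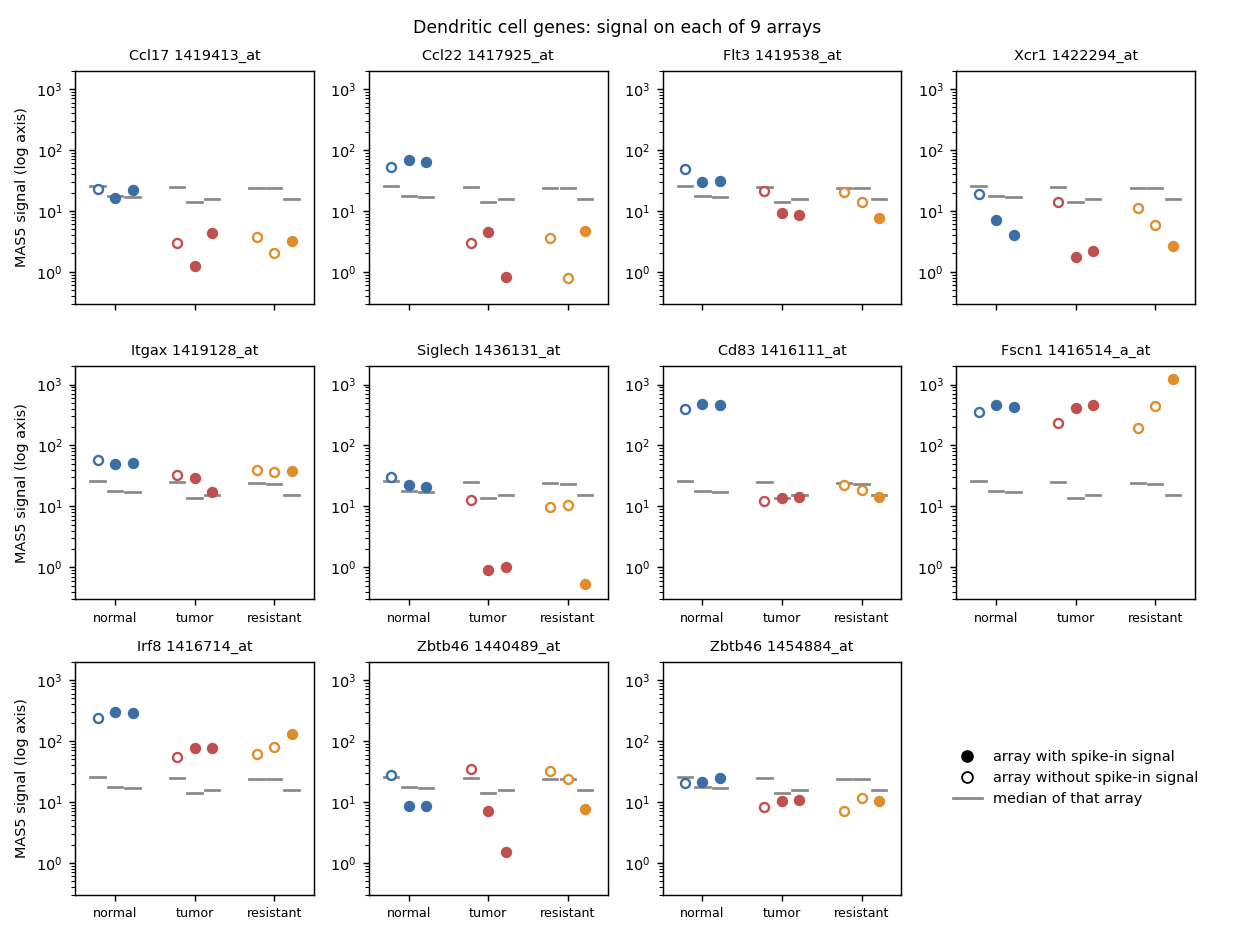
MAS5 signal (arbitrary units, log axis) of 11 probe sets of the 10 genes on each array, grouped as normal thymus, tumor and resistant tumor (3 points each, replicates 1 to 3 from left to right); filled points are arrays with spike-in signal, open points those without, and grey dashes give the median of each array. Cd83 fell from 394 to 478 in normal thymus to 12.4 to 22.7 in the tumor groups, while Fscn1 stayed above the array medians on all 9 arrays.

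Cd83, an immunoglobulin-superfamily protein of mature dendritic cells, fell in both tumor groups. Its signal was 394, 478 and 459.8 on the normal arrays, 12.4, 13.8 and 14.1 on the tumor arrays and 22.7, 18.7 and 14.2 on the resistant tumor arrays. All 6 tumor values lay below the median of their array and far below every normal value. The log2 change was -5.05 ± 0.21 in tumor (limma, SE over 3 arrays per group, adjusted p = 3.98e-07) and -4.60 ± 0.21 in resistant tumor (limma adjusted p = 7.20e-07). A gene below the array median throughout a group has only a bound there, taken on each array as the higher of its own signal and the array median. By that bound Cd83 was at least 25.3-fold lower in tumor and at least 21.4-fold lower in resistant tumor. The tumor change was -4.99 within the arrays without spike-in signal and -5.07 within those with it.

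The chemokines Ccl22 and Ccl17, both ligands of the receptor Ccr4, were near the bottom of the scale in the tumors. Ccl22 read 53.1, 69.1 and 63.9 in normal thymus, 2.96, 4.56 and 0.825 in tumor and 3.63, 0.803 and 4.75 in resistant tumor. The groups did not overlap with normal thymus, and the order of the 6 tumor values has no meaning this far below the array medians. The log2 change of Ccl22 was -4.70 ± 0.82 in tumor (limma adjusted p = 0.00139) and -4.58 ± 0.82 in resistant tumor (limma adjusted p = 0.00162). The bound was at least 3.53-fold lower in tumor and at least 2.98-fold lower in resistant tumor.

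Ccl17 was dimmer. It read 23.1, 16.4 and 21.8 in normal thymus, where only the third array exceeded its median, 3.03, 1.24 and 4.41 in tumor and 3.70, 2.04 and 3.16 in resistant tumor. Again every tumor value lay below every normal value. Since Ccl17 did not enter the fit across genes, its test comes from the fit of all 45037 probe sets without a filter. In that fit the log2 change of Ccl17 was -2.99 ± 0.55 in tumor (limma adjusted p = 0.00697), a bound of at least 1.16-fold, and -2.81 ± 0.55 in resistant tumor (limma adjusted p = 0.00917), where no bound above 1 could be given. Neither call held when values under 16 were set to 16 (limma adjusted p = 0.118 and 0.115).

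Ccl22 and Ccl17 lie on chromosome 8 with one gene between them in the RefSeq order, Cx3cl1, which encodes the membrane-bound chemokine fractalkine. Cx3cl1 read 48.8, 45.6 and 40.9 in normal thymus, 22.1, 8.22 and 9.79 in tumor and 19.0, 23.4 and 7.65 in resistant tumor. All 6 tumor values lay below the median of their array and below every normal value. The fitted log2 changes, which are no bounds, were -1.89 in tumor (limma adjusted p = 0.0125) and -1.58 in resistant tumor (limma adjusted p = 0.0281). Among the genes flanking the trio, Ciapin1 was higher in both (log2 changes 0.70 and 0.63, limma adjusted p = 0.0292 and 0.0459). Arl2bp (-0.35 and -0.41) and Coq9 (0.59 and 0.28) did not pass the test, and Pllp was too dim to be tested.

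Fscn1, which encodes the actin-bundling protein fascin of mature dendritic cells, did not follow Cd83 and the chemokines. Its brightest probe set read 354, 456 and 433 in normal thymus, 234, 406 and 466 in tumor and 194, 446 and 1227 in resistant tumor. The groups overlapped throughout, and resistant tumor 3 stood far above the other 8 arrays. The log2 change was -0.22 ± 0.54 in tumor (limma adjusted p = 0.784) and 0.20 ± 0.54 in resistant tumor (limma adjusted p = 0.789). Without resistant tumor 3 the latter became -0.48. That array also had the highest summed signal of 9 stromal marker genes, 6862 against 2410.2 to 5443 on the other tumor arrays of both groups, and the second highest Actb ratio. The part of either in the Fscn1 value was not tested.

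The other probe set of Fscn1 above the array medians on all 9 arrays, 1448378_at, read 114, 86.1 and 51.0 in normal thymus, 121, 77.4 and 59.8 in tumor and 113, 160.3 and 152 in resistant tumor. Of its resistant tumor values 2 lay above all normal and tumor values, with a log2 change from normal thymus of 0.82 ± 0.35 that missed the threshold (limma adjusted p = 0.157 over all probe sets). The remaining probe sets, 1416515_at and 1416516_at, lay below the array median on every array, with values of 4.91 to 14.6 and 0.587 to 5.39.

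Irf8 encodes a transcription factor needed for type 1 conventional dendritic cells and active in plasmacytoid cells. Its probe set 1416714_at read 240.3, 296 and 291 in normal thymus, 54.7, 75.5 and 75.6 in tumor and 61.5, 78.7 and 131 in resistant tumor. Neither tumor group overlapped with normal thymus, and all values stayed above the array medians. The log2 change of Irf8 was -2.02 ± 0.26 in tumor (limma adjusted p = 0.000257) and -1.68 ± 0.26 in resistant tumor (limma adjusted p = 0.000788), that is 4.05-fold and 3.19-fold lower.

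The second Irf8 probe set, 1448452_at, varied more between arrays. It read 181, 97.9 and 87.2 in normal thymus, 54.4, 25.7 and 38.3 in tumor and 77.4, 88.8 and 32.9 in resistant tumor. Tumor lay below normal thymus on all arrays (log2 change -1.62 ± 0.46, limma adjusted p = 0.0429), a call lost in 7 of the 9 refits that left out 1 array, all but those without tumor 1 or resistant tumor 3. Resistant tumor overlapped with normal thymus (-0.93 ± 0.46, limma adjusted p = 0.233), but within the spike-in sets its change was -1.13 and -1.49. With a block for the set it passed too (limma adjusted p = 0.00245), as the first probe set did.

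Flt3 encodes the receptor through which Flt3 ligand drives dendritic cell development. It read 48.0, 29.5 and 30.8 in normal thymus, 21.0, 9.09 and 8.46 in tumor and 20.4, 14.2 and 7.69 in resistant tumor. The 6 tumor values lay below all normal values and below the median of their array. The log2 change was -1.59 ± 0.49 in tumor (limma adjusted p = 0.0263) and -1.43 ± 0.49 in resistant tumor (limma adjusted p = 0.0398), with bounds of at least 2.02-fold lower and at least 1.70-fold lower. Both calls were lost without any 1 of the 3 normal arrays. The tumor call was also lost without tumor 2 or tumor 3, and the resistant tumor call without resistant tumor 2 or resistant tumor 3 (limma adjusted p up to 0.0908 and 0.120).

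Zbtb46, a transcription factor gene used to tell conventional dendritic cells from macrophages, gave different answers from its 4 probe sets. The one that stood for the gene, 1440489_at, was the only one to pass the filter on low values, reaching the array median on 3 arrays. It read 27.6, 8.43 and 8.59 in normal thymus, 34.1, 7.08 and 1.53 in tumor and 31.6, 23.4 and 7.53 in resistant tumor. Its values were high on the 4 arrays without spike-in signal and low on the other 5 whatever the group. The log2 changes were -0.81 ± 1.06 and 0.49 ± 1.06 (limma adjusted p = 0.582 and 0.737).

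The probe set 1454884_at separated normal thymus from both tumor groups. It read 20.1, 21.6 and 24.8 in normal thymus, 8.16, 10.4 and 10.8 in tumor and 7.13, 11.7 and 10.5 in resistant tumor. Neither tumor group overlapped with normal thymus, while tumor and resistant tumor overlapped with each other. The log2 change was -1.18 ± 0.35 in tumor and -1.21 ± 0.35 in resistant tumor, just past the threshold in the fit of all probe sets (limma adjusted p = 0.0496 and 0.0458). The bounds were at least 1.27-fold lower in tumor and at least 1.07-fold lower in resistant tumor. Of the 9 refits that each left out 1 array, 1 kept the tumor call, that without resistant tumor 1, and 1 kept the resistant tumor call, that without tumor 1 (limma adjusted p up to 0.173 and 0.167). The probe sets 1429168_at and 1453856_at were below the array median on all 9 arrays.

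Itgax encodes CD11c, the integrin alpha chain that pairs with the beta 2 chain Itgb2. It read 56.7, 50.3 and 51.7 in normal thymus, 33.0, 28.9 and 17.0 in tumor and 38.9, 36.6 and 37.6 in resistant tumor. The 3 groups did not overlap, with normal thymus highest, resistant tumor next and tumor lowest. The tumor change was -1.06 ± 0.26 (limma adjusted p = 0.00871), a call lost when array medians were set equal (limma adjusted p = 0.0932). The resistant tumor change of -0.49 ± 0.26 (limma adjusted p = 0.160) and the difference of 0.57 ± 0.26 between resistant tumor and tumor (limma adjusted p = 0.693) did not pass.

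Siglech, the sialic acid-binding lectin of plasmacytoid dendritic cells, read 30.5, 22.3 and 20.5 in normal thymus, 12.6, 0.889 and 1.02 in tumor and 9.72, 10.5 and 0.540 in resistant tumor. Every tumor value was below every normal value, and the lowest 3 came from arrays with spike-in signal. The log2 change was -3.36 ± 1.22 in tumor (limma adjusted p = 0.0490) and -2.37 ± 1.22 in resistant tumor (limma adjusted p = 0.146). The bounds were at least 1.38-fold lower in tumor and at least 1.16-fold lower in resistant tumor. Within the arrays without spike-in signal the change was -1.28 in tumor and -1.60 in resistant tumor, and within those with it -4.40 and -4.42. The tumor call held in 9 of 18 alternatives and was lost without any 1 of normal thymus 1 to 3, tumor 2, tumor 3, resistant tumor 1 or resistant tumor 2 (limma adjusted p up to 0.145). Resistant tumor passed in 4 of 18 alternatives, those with quantile normalization, 50 added before the log, values under 16 set to 16 and a block for the spike-in set (limma adjusted p from 0.00292 under the block, up to 0.371 over all alternatives).

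Xcr1, the receptor for the chemokine Xcl1 on type 1 cells, was below the array median on all 9 arrays. It read 19.2, 7.05 and 4.08 in normal thymus, 13.9, 1.75 and 2.23 in tumor and 11.2, 5.80 and 2.66 in resistant tumor. The groups overlapped, and no change could be detected at this signal (log2 changes -1.11 ± 0.97 and -0.56 ± 0.97, limma adjusted p = 0.560 and 0.789 over all probe sets).

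**Figure D2:**
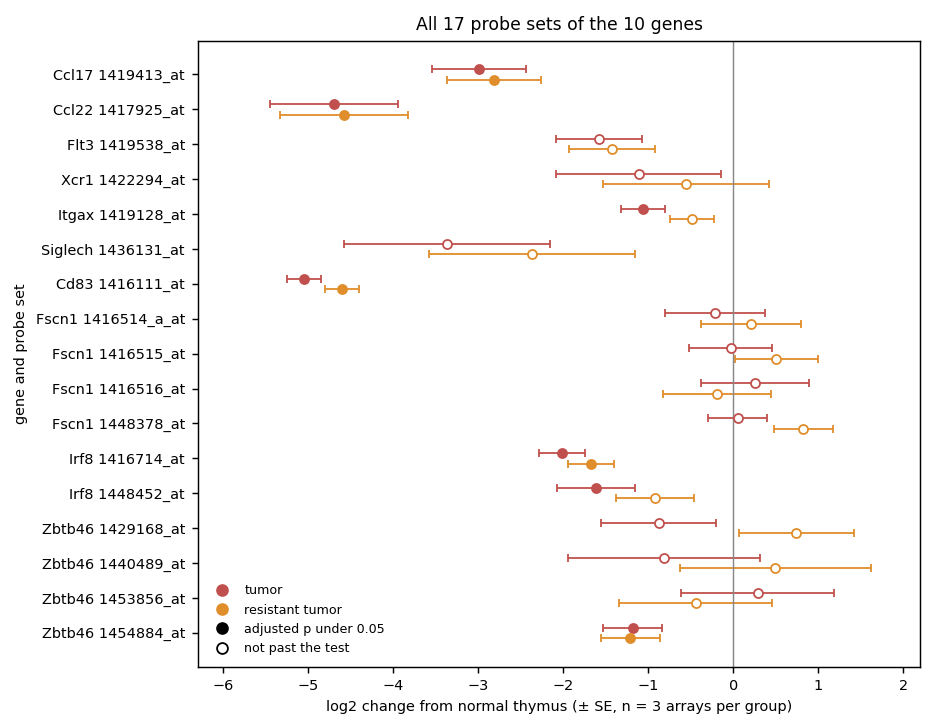
Log2 change from normal thymus (horizontal axis, ± SE, 3 arrays per group) of all 17 probe sets in the fit of all probe sets, for tumor (red) and resistant tumor (orange); filled points passed the test in that fit. Changes of -5.05 and -4.60 in Cd83 stand at the left, and the 4 probe sets of Fscn1 lie around 0 without passing.

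Read over all 17 probe sets rather than 1 per gene, 7 were called lower in tumor and 5 in resistant tumor, and none was called higher. Over all 45037 probe sets, dim ones included, 9.32% and 9.27% were called lower. The fitted change was negative for 14 of the 17 in tumor and for 12 in resistant tumor. Flt3 and Siglech, called in the fit across genes, did not pass over all probe sets (limma adjusted p = 0.0668 and 0.101 in tumor).

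Resistant tumor and tumor were close to each other. None of the 8 tested genes passed in resistant tumor against tumor, also at an unadjusted p under 0.05, and 0.36% of all genes did (42 genes by limma, and 844 at an unadjusted p under 0.05). The 8 fitted differences were all positive, with a median of 0.43, where 47.6% of all genes were positive. The spike-in sets are unevenly split here, since resistant tumor 2 lacked spike-in signal and tumor 2 had it. Within both sets Itgax, Cd83, Fscn1 and Irf8 stayed positive. Flt3 was negative in both (-0.30 without and -0.19 with spike-in signal), as was Siglech (-0.31 and -0.016). Ccl22 and Zbtb46 were negative without spike-in signal (-0.64 and -0.32) and positive with it (1.16 and 1.20). Tumor and resistant tumor arrays did not overlap for Itgax and Cd83, each with resistant tumor higher. The share of all genes without overlap was not computed for this comparison, so this is a description only. For Cd83 the difference was 0.44 ± 0.21 (limma adjusted p = 0.729), and all 6 arrays lay below their median for this gene. Quantile normalization turned Ccl22 and Flt3 negative (-0.087 and -0.17). When array medians were set equal, Flt3 turned to -0.091, and the median of all genes in this comparison moved from -0.02 to -0.26, so that Flt3 stayed 0.17 above it. The comparisons with normal thymus share the normal arrays and are given side by side for that reason.

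Genes of the same cells were read from lists chosen by cell type. Over all genes tested, 19.1% were called lower and 23.3% higher in tumor, and 20.2% and 23.1% in resistant tumor. Each list count below stands beside these shares and describes only the few genes of its list. Of 6 tested genes of type 1 conventional cells, 5 fell in tumor and 4 in resistant tumor, and none rose. The largest falls were Wdfy4, needed for cross-presentation (log2 changes -3.33 and -3.05), and the antigen uptake receptor Ly75 (-2.54 and -1.95). Cadm1 also fell in resistant tumor (-0.89, limma adjusted p = 0.0358), a call that held in 12 of 18 alternatives. The transcription factor Batf3 was at least 1.93-fold lower in tumor and at least 1.63-fold lower in resistant tumor, and the double-stranded RNA receptor Tlr3 at least 1.36-fold lower in tumor. The tumor calls of Batf3 and Tlr3 each held in 11 of 18 alternatives, and both were lost without any 1 normal array, tumor 2 or tumor 3 (limma adjusted p up to 0.115 and 0.101). Tlr3 was lost without resistant tumor 2 as well. The list's median was -1.62 and -1.50, against 0.05 and 0.06 over all genes tested. Listed genes given by a bound lay below the array median in the tumors, or in normal thymus for Nfil3. They entered through other arrays, so that list counts and medians describe only the genes tested. Wdfy4 exceeded the array median in the tumor groups only on tumor 3 and resistant tumor 3, so the size of its falls is uncertain. The same holds below for Relb and H2-DMb2 (tumor 2 and resistant tumor 3 only). In resistant tumor it also holds for Klf4 and Cd40 (resistant tumor 3 only). Of 4 tested genes of type 2 cells, 3 fell in each comparison and none rose. Sirpa fell in both (-0.67 and -0.57), and Klf4, a zinc finger transcription factor, in resistant tumor (-1.50). The lectin Cd209a was at least 1.47-fold lower in tumor and at least 1.24-fold lower in resistant tumor, and the lectin Mgl2 at least 1.15-fold lower in tumor. These calls were fragile. Cd209a held in 11 and 13 of 18 alternatives and was lost in both comparisons without any 1 normal array. It was also lost in tumor without tumor 2, tumor 3 or resistant tumor 2, and in resistant tumor without resistant tumor 2 or 3 (limma adjusted p up to 0.136 and 0.0950). Mgl2 held in 11 of 18 and was lost without normal thymus 1 or 2, tumor 2 or tumor 3 (up to 0.261 over all alternatives). Klf4 held in 11 of 18 and was lost without any 1 normal array, resistant tumor 1 or resistant tumor 2 (up to 0.103). Sirpa held in 17 and 14 of 19. It was lost in both comparisons with equal array medians and with the mean over probe sets, and in resistant tumor without normal thymus 2, normal thymus 3 or resistant tumor 2 (up to 0.447 and 0.586).

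The plasmacytoid list moved both ways. Of 7 tested genes 4 fell and 2 rose in tumor, and 3 fell and 2 rose in resistant tumor. Pacsin1, a membrane-shaping adaptor, was at least 5.19-fold lower in tumor and at least 4.38-fold lower in resistant tumor. The transcription factor Spib (-1.93 and -1.29) and the antiviral membrane protein Bst2 (-1.67 and -1.41) fell in both. Bst2 was lost in both with equal array medians (limma adjusted p = 0.0932 and 0.103). Spib was lost in resistant tumor with equal array medians and without normal thymus 2, normal thymus 3 or resistant tumor 1 (up to 0.0763). Tcf4, the master regulator of plasmacytoid cells that is also used in many other tissues, rose in both. It read 275, 295 and 274 in normal thymus, 776, 739 and 689 in tumor and 821, 699 and 674 in resistant tumor (log2 changes 1.38 ± 0.11 and 1.37 ± 0.11, limma adjusted p = 1.09e-05 and 1.17e-05). The kallikrein Klk1 also rose (0.73 and 0.77).

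Among 9 tested genes of mature dendritic cells, 6 fell and 1 rose in tumor, and 7 fell and 1 rose in resistant tumor. Ccr7, the chemokine receptor that guides mature cells and also thymocytes into the medulla, read 85.8, 88.1 and 86.0 in normal thymus. It read 3.93, 4.62 and 0.265 in tumor and 1.88, 2.11 and 9.08 in resistant tumor, all below every normal value. Ccr7 was at least 4.96-fold lower in tumor and at least 4.18-fold lower in resistant tumor (limma adjusted p = 0.000773 and 0.00115). The costimulatory gene Cd86 was at least 3.28-fold lower in tumor and at least 2.77-fold lower in resistant tumor. Relb, the NF-kappaB subunit needed for dendritic cell development, fell (-2.21 and -2.34). The costimulatory receptor Cd40 was at least 3.10-fold lower in tumor and fell in resistant tumor (-1.83). Nfkb2, which encodes the partner of Relb in the alternative NF-kappaB pathway, rose in both, by 1.72 and 0.77.

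Among the partners of the 10 genes, 4 of 8 could be tested, and in both comparisons 2 fell and 1 rose. Itgb2, the beta chain that pairs with CD11c, fell (-2.29 and -1.88). Of the receptor chains for GM-CSF, a growth factor of dendritic cells, Csf2rb fell (-0.78 and -0.81) while Csf2ra rose (1.18 and 0.62). With equal array medians Csf2rb passed in neither comparison and Csf2ra not in resistant tumor, where the mean over probe sets lost it too. Xcl1, Ccr4 and Csf2 were too dim, and Flt3l was not listed under a single symbol. Of 6 transcription factor genes that direct dendritic cell fate, 2 fell and 1 rose in tumor, and 2 fell and 2 rose in resistant tumor. The shares over all genes were 19.1% lower and 23.3% higher in tumor, and 20.2% and 23.1% in resistant tumor. With 6 genes the counts are a description only. Bcl6, which thymocytes also express, fell (-3.85 and -3.39), and Ikzf1, a zinc finger factor of the lymphoid and dendritic lineages, fell too (-1.13 and -1.10), its tumor call being lost with equal array medians (limma adjusted p = 0.0753). Nfil3, a basic leucine zipper factor, was at least 3.60-fold higher in tumor and at least 4.70-fold higher in resistant tumor. It lay below the array median on all normal arrays and entered through tumor arrays alone, so its rise is partly built into the filter. Id2 rose in resistant tumor (1.01). Spi1, which encodes PU.1 and is shared with macrophages, had changes of -0.06 and -0.08.

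Of 7 tested genes of MHC class II presentation, 6 fell in each comparison and none rose. The largest falls in tumor were H2-Eb1 (-4.31 and -3.58), H2-DMb2 (-4.29 and -3.78), H2-Aa (-3.83 and -3.25) and the invariant chain Cd74 (-3.60 and -3.72). H2-DMb2 read 14.6, 13.93 and 14.0 in tumor, above the array median only on tumor 2 (median 13.90), so the size of its fall is uncertain. The median was -3.60 in tumor and -3.25 in resistant tumor. Dendritic cells share these genes with B cells, macrophages and thymic epithelium.

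**Figure D3:**
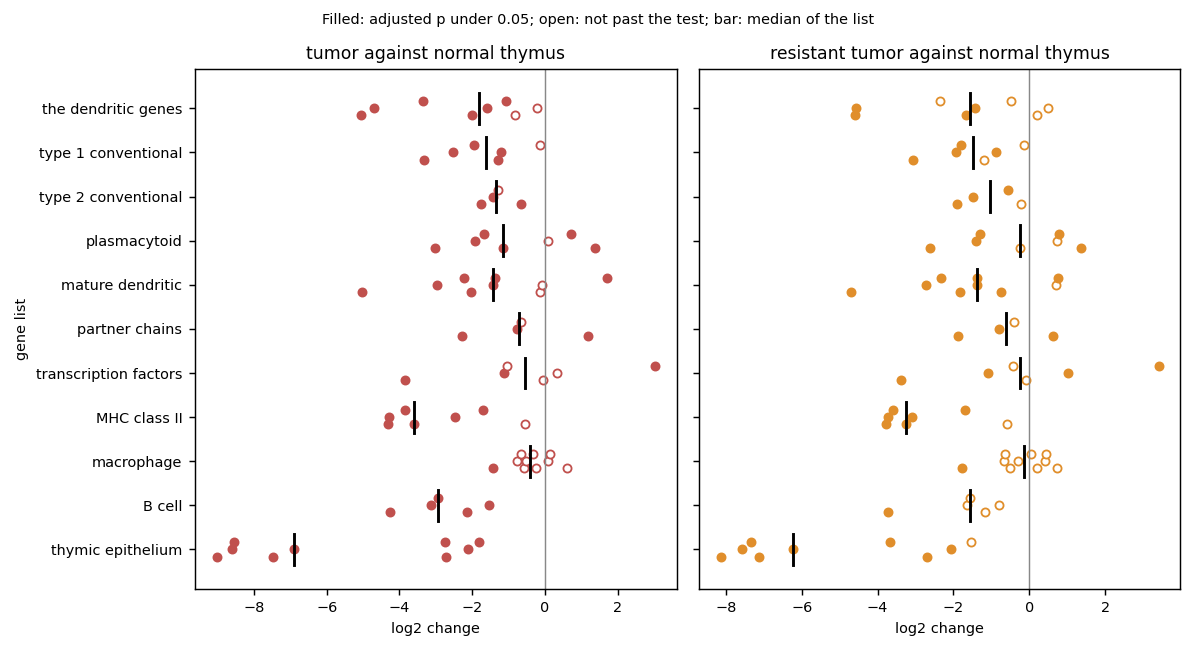
Log2 change from normal thymus of each tested gene (1 point per gene) by list, for tumor on the left and resistant tumor on the right; filled points passed the test and black bars mark the list medians, such as -3.60 for MHC class II in tumor. The top row holds the 8 dendritic genes that could be tested. The macrophage list has a median of -0.42 in tumor and -0.14 in resistant tumor.

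Markers of other cells that use some of these genes moved alongside. All 9 thymic epithelial markers fell in tumor and 8 of 9 in resistant tumor, and their summed signal was 7194 to 7719 in normal thymus, 109 to 237 in tumor and 117 to 167 in resistant tumor. Of 5 tested B cell markers, all fell in tumor and 1, Cd79b, in resistant tumor. The B cell sum was 294 to 335 in normal thymus, 41.5 to 129.8 in tumor and 81.6 to 137 in resistant tumor. Of 9 thymocyte markers 5 fell and 1 rose in each comparison, with sums of 16155 to 17932, 11974 to 12160.4 and 10416 to 12910.4. None of 5 early T progenitor markers passed. Which of these cells contributed to the falls of Cd83, Irf8, Flt3, Ccr7 and the MHC class II genes was not tested.

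Of 10 tested macrophage markers, 1 fell and none rose in either comparison, the one being the phagocytic receptor Mertk (-1.44 and -1.77). Over all genes, 19.1% were called lower in tumor and 20.2% in resistant tumor. The macrophage markers had a median log2 change of -0.42 in tumor and -0.14 in resistant tumor, against 0.05 and 0.06 over all genes. Their summed signal overlapped between groups, at 2163 to 2661 in normal thymus, 1430.4 to 2481 in tumor and 1506 to 2864 in resistant tumor. Of 9 stromal markers 4 rose and 1 fell in tumor, and 5 rose and 2 fell in resistant tumor, with sums of 1293 to 1412, 2410.2 to 5443 and 2851 to 6862. No marker of the lists was below 1 on all arrays of a group. The difference between the macrophage list and the dendritic genes was not tested.

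**Figure D4:**
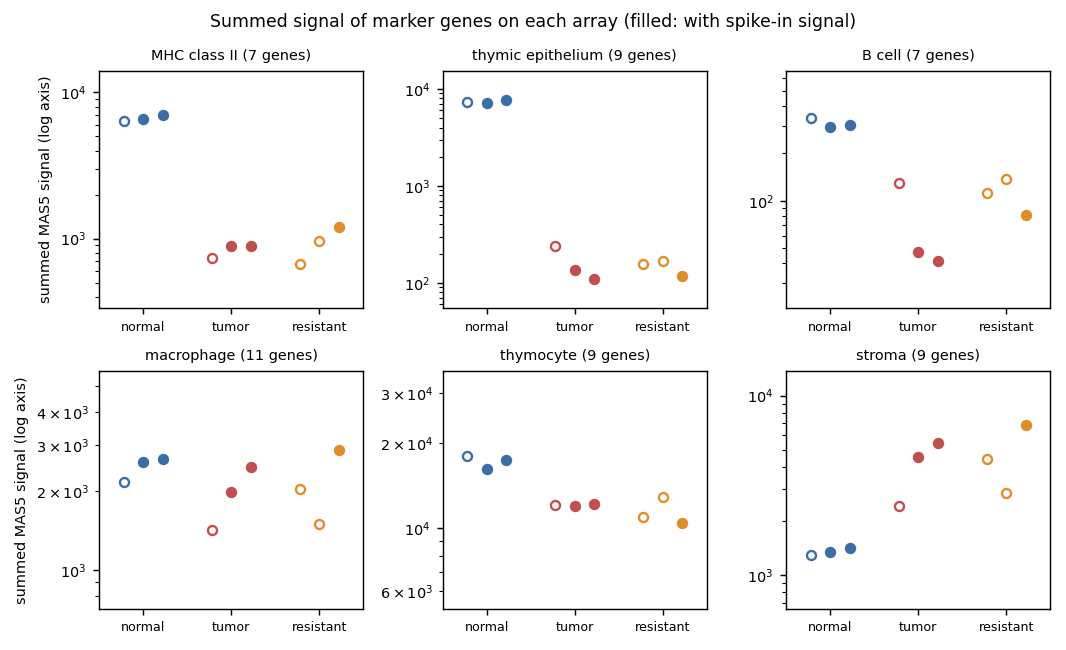
Summed MAS5 signal (arbitrary units, log axis) of the listed markers of 6 gene groups on each of the 9 arrays; filled points are arrays with spike-in signal, open points those without. Thymic epithelial sums drop from at least 7194 in normal thymus to at most 237 in tumor and 167 in resistant tumor, while macrophage sums overlap between the groups.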

How the data were processed

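Total RNA of 9 mouse samples was hybridised to 1 array each. The authors deposited a table of linear intensity values (MAS5, according to the submitters' processing notes). Its version, scaling target and detection calls are not stated there. The platform gene table gave 1 symbol to 34945 probe sets, several to 932 (none with one of the 10 genes) and none to 9160.

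The floor was 1, and log2 of the values was used. Probe sets at or above the array median on 3 or more arrays were kept, and the brightest by mean log2 represented its gene. Group means were fitted to all 9 arrays in limma 3.58.1 (R 4.3.3, intensity trend, 6 residual degrees of freedom), with two-sided tests and Benjamini-Hochberg adjustment over all genes. A second, unfiltered fit of all 45037 probe sets gave values for dim ones. The code of the fit was run on simulated data with independent noise on each array. These held no spike-in set effect, so the run cannot speak to that effect. Figures used matplotlib 3.10.9.

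All probe sets of the 10 genes are named. From each list of dendritic, partner, transcription factor and MHC class II genes, up to 4 called genes with the largest change per comparison are named. Klk1 is named beyond that rule, and Nfkb2 through its difference between resistant tumor and tumor. The 10 genes and the 14 lists were chosen with earlier results of these data known. Deviations from group means correlated at -0.34 to 0.65 between same-numbered arrays of different groups, with 7 of 9 over 0.1, against 6 of 18 other pairs. They followed the spike-in set instead. The 13 pairs within a set had correlations of 0.36 to 0.65, and the 14 pairs across sets -0.74 to -0.30. The main fit holds no term for this set, which entered as a block in an alternative. Alternatives covered normalization, floor, filter, trend, probe set choice, blocks and each array left out. The number of arrays limits the precision.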

Additional observations from a re-analysis of the deposited data

Results flagged for a closer look

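Nfkb2, the gene among the listed ones that differed between resistant tumor and tumor, stands out because its rise over normal thymus was smaller in resistant tumor, by a test of that difference. Its signal was 105, 116 and 121 in normal thymus, 319.6, 419 and 393 in tumor and 188, 184 and 211 in resistant tumor, with no overlap between any of the groups. The difference was -0.95 ± 0.14 on the log2 scale (limma adjusted p = 0.0213, n = 3 arrays per group). It held in 11 of 19 alternatives, with an adjusted p of 0.00224 to 0.846. It was lost with equal array medians, with the mean over probe sets and without normal thymus 2 or 3, tumor 2 or 3, or resistant tumor 1 or 2. In the same difference the other 8 tested genes of the mature dendritic list did not pass.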

How the results depend on the processing

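In the fit across genes, Cd83, Ccl22 and Irf8 kept direction and call against normal thymus under every alternative in which they were tested. The second Irf8 probe set, 1448452_at, was called in tumor in 7 of 16 alternatives and in resistant tumor in 1 of 16. Cd83 ranged from -5.13 to -2.96 in tumor, the smallest value coming with 50 added before the log. The number of the 10 genes called was 2 to 6 in tumor and 2 to 5 in resistant tumor, the value 2 coming from the filter at the 75th percentile, which left 3 of them to test. With each array left out it was 4 to 6 and 3 to 4. Probe sets called in tumor were 4 to 8 with each array left out, 4 without any 1 of the normal arrays, and those in resistant tumor were 8 with a block for the spike-in set. Signal limits Xcr1, Ccl17, Siglech and most Zbtb46 and Flt3 values, which lie near or below the array medians.

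With equal array medians the calls over all genes were 2284 in tumor (1290 higher and 994 lower, where the main split was 2714 and 2229) and 2034 in resistant tumor (877 higher and 1157 lower, against 2696 and 2353), and the median of all genes in tumor moved from 0.05 to 0.24. With each array left out the counts were 3878 to 5374 and 3818 to 5310. In resistant tumor against tumor the 42 calls (15 higher and 27 lower) became 18 with equal array medians (4 higher and 14 lower), 22 without a filter, 23 with the filter at the 75th percentile, 27 with the mean over probe sets, 143 with a block for the spike-in set and 8 to 70 with each array left out. The fewest came without tumor 2 (8) and tumor 3 (10), and without normal thymus 2 or 3 there were 20 and 19. With the replicate number as a block there were 92. Under that replicate block 6 of the 10 genes were called in tumor and 4 in resistant tumor, as without it. The labels do not pair arrays of the same number, and the correlations of their deviations followed the spike-in set rather than the number.

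The changes that reversed did not pass the test in either setting, except Zbtb46 in resistant tumor against normal thymus, which without a filter was read from another probe set and was -1.21 (adjusted p = 0.0396). The cause was not tested for the others. With quantile normalization, resistant tumor against tumor turned to -0.25 in Ccl17, -0.087 in Ccl22 and -0.17 in Flt3, and the Fscn1 probe set 1416515_at in tumor to 0.25. With equal medians these were -0.072 in Ccl17, -0.091 in Flt3 and 0.15 in 1416515_at. With values under 16 set to 16, Flt3 was -0.013 in resistant tumor against tumor and Zbtb46 0.10 in tumor against normal thymus. Without a filter Zbtb46 was -0.025 in resistant tumor against tumor. With the spike-in block, resistant tumor against tumor was -0.19 in Flt3, -0.14 in Xcr1 and 0.061 in the Zbtb46 probe set 1454884_at, and resistant tumor against normal thymus was 0.078 in the Fscn1 probe set 1416516_at and -0.27 in Zbtb46.
With each array left out in turn, resistant tumor against tumor ranged from -0.35 to 0.57 in Ccl17, -0.51 to 0.80 in Ccl22, -0.17 to 0.58 in Flt3 and -0.27 to 1.06 in Fscn1. It ranged from -0.92 to 0.30 in 1416516_at, from -0.17 to 0.18 in 1454884_at and from -1.35 to 0.30 in 1453856_at. Tumor against normal thymus ranged from -0.42 to 0.080 in Fscn1, -0.16 to 0.17 in 1416515_at, -0.49 to 0.73 in 1416516_at, -0.27 to 0.32 in 1448378_at and -1.94 to 0.30 in Zbtb46. Resistant tumor against normal thymus ranged from -0.48 to 0.85 in Fscn1, -0.53 to 0.058 in 1416516_at, -1.06 to 0.057 in Xcr1 and -1.07 to 0.58 in 1453856_at.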
